A study of Mus musculus with 2 samples.

Results

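Thermogenic and beige adipocyte genes were followed in white adipose tissue labelled as Oma1-deficient and in white adipose tissue labelled as control. The group was a list of 10 genes for uncoupling and for the identity of brown and beige fat cells: Ucp1, Cidea, Ppargc1a, Prdm16, Dio2, Elovl3, Kcnk3, Otop1, Ebf2 and Zic1. Each was taken from the probe sets that carried its symbol and no other, which gave 11 probe sets for the 10 genes, out of 19938 genes measured in all. The Oma1_KO array held Oma1-deficient fat and the Oma1_WT array control fat. Both groups are labelled as 24 weeks old and as fed a high-fat diet for 20 weeks, so that diet is shared and no fat of another diet or of cold exposure was compared. There was 1 Affymetrix Mouse Gene 1.0 ST array per group. The labels give neither the fat depot, the strain, the sex nor the nature of the Oma1 allele, and whether an array held pooled RNA is not stated either.

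Brown and beige adipocytes burn fuel to make heat. Noradrenaline from sympathetic nerves raises cAMP in the cell, which releases fatty acids and switches on genes such as Ucp1, whose product lets protons flow back into the mitochondrial matrix without making ATP. Beige cells arise within white fat depots and lose much of this programme in obesity and warmth. Oma1, an inner membrane protease that responds to mitochondrial stress and cleaves the fusion protein Opa1, has been linked to heat production in mice, and the comparison shows how these genes read in fat without it.

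The values are the deposited intensities, which reached 21365 in the Oma1_KO array and 21216 in the Oma1_WT array, with a median of 83 over all probe sets on both. Differences are given as log2(intensity + 1) in Oma1_KO minus that in Oma1_WT. With 1 array per group there is no test of the genotype and no spread between animals, so sizes are set against 2 yardsticks: the share of all genes past 1.5-fold, and the SD between probe sets of the same gene. That SD, from genes with exactly 2 probe sets, was 0.19 on the log2 scale for genes with a mean under 83 (232 genes), 0.20 from there to an intensity of 326 (251 genes) and 0.14 above that (294 genes). It covers disagreement within the same pair of RNAs and nothing else. Adipocyte markers were bright on both arrays, with Adipoq, the adiponectin gene, at 5255 in Oma1_KO and 6832 in Oma1_WT, as the tissue label says. The Oma1 probe set read 155 in Oma1_KO and 187 in Oma1_WT, and since the disrupted part of the gene is not given, that value does not check the genotype.

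Of the 10 thermogenic genes, only Cidea was at least 1.5-fold higher in Oma1_KO, and 0 were at least 1.5-fold lower. The background over all 19938 genes was 1.1% past 1.5-fold upward and 1.38% past it downward. Of the 10, 6 read higher in Oma1_KO, 3 lower and 1 equal, and their median log2 difference was 0.09, against a median of 0.00 for all genes, of which 46.9% read higher and 47.9% lower. By brightness, 5 members had a mean under 83, where 0.925% of genes were past 1.5-fold upward and 0.902% downward. There were 2 members between 83 and 326, where these shares were 1.57% and 2.08%, and 3 above 326, where they were 0.899% and 1.4%. The usual direction also varied with brightness. Of the 8539 genes with a mean under 83, 5184 read higher and 2443 lower. Of the 11399 with a mean of at least 83, 4172 read higher and 7100 lower. Without Cidea the median of the other 9 was 0.01. The differences of 8 of the 10 were under 2 SDs between probe sets, and those of 5 were under 1 SD. Their values ran from -0.22 to 1.33, and no shared direction was seen.

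**Figure D1:**
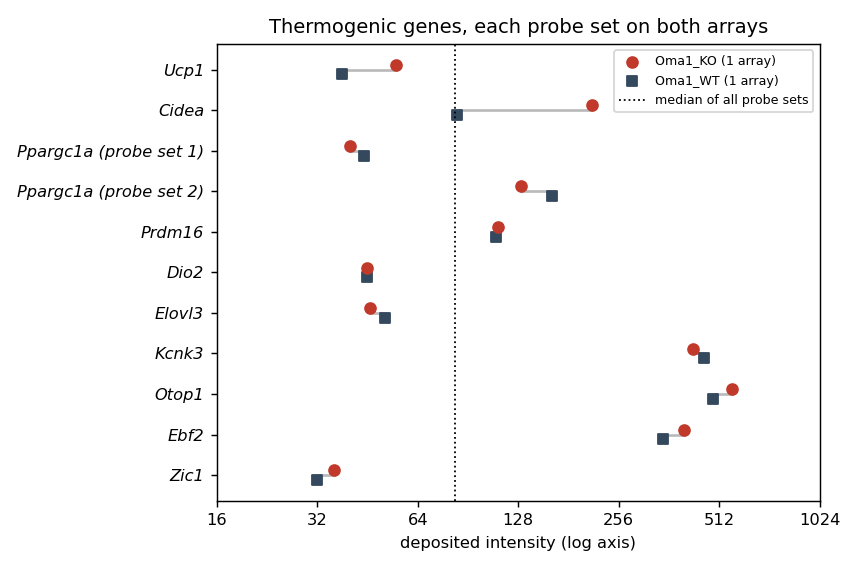
Deposited intensity of each of the 11 probe sets of the 10 thermogenic genes (log axis), with the Oma1_KO array as circles and the Oma1_WT array as squares; each point is 1 array and the dotted line is the median of all probe sets, 83. Cidea has the widest gap, at 213 in Oma1_KO and 84 in Oma1_WT, and 5 probe sets lie under the median on both arrays.

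The cAMP-driven members come first. The adrenergic signal reaches genes through CREB and its relatives, which bind the cAMP response element TGACGTCA or its half-site TGACG, so the 250 bases upstream of the start sites were searched on both strands. RefSeq promoters (GRCm38.p6) were at hand for 6 of the 10 genes. The half-site lay upstream of 3 of the 6, namely Dio2, Ppargc1a and Ucp1, against 17.8% of all 32851 promoters, and the full element upstream of Dio2 alone, against 1.55%. Both half-sites found at Dio2 lie inside its full element. These sequences are shown because they are the members whose promoters carry the letters of the pathway. The capitals mark the cAMP matches, and also AGGTCA, the half-site of nuclear receptors, at Ucp1 (in 14.0% of promoters, both strands) and TATAAA, the TATA box, at Dio2 (in 7.59%, reading strand only).
Dio2 (chr12:90739039-90739288, minus strand): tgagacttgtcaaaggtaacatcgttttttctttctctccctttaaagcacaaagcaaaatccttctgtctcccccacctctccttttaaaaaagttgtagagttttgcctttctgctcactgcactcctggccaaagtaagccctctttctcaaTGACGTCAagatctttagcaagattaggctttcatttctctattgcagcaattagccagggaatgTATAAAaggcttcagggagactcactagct
Ppargc1a (chr5:51567726-51567975, minus strand): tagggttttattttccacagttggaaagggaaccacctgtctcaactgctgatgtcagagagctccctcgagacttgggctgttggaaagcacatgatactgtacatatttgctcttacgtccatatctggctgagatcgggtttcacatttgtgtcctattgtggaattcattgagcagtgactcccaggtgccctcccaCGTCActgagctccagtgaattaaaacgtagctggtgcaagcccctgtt
Ucp1 (chr8:83290098-83290347, plus strand): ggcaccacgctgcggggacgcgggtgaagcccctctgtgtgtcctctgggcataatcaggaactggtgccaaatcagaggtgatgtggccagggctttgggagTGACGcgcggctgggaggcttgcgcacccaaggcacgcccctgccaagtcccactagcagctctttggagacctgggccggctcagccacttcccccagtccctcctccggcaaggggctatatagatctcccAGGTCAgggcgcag
The full element at Dio2 spans 95 to 88 bases upstream of the start, with the TATA box at 30 to 25. The half-site at Ppargc1a lies 49 to 45 bases upstream, on the opposite strand, and that at Ucp1 147 to 143 bases upstream. The EBF motif CCCNNGGG, which reads the same on both strands and which Ebf2 and its relatives bind, was found in 11.8% of all promoters and upstream of 0 of the 6 genes. A match is a description of the letters and shows no binding in this fat.

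The 3 genes that share the half-site did not share a direction. Ucp1, the uncoupling protein itself, read 55 in Oma1_KO and 38 in Oma1_WT, a log2 difference of 0.52, just short of 1.5-fold. It is the second largest difference of the 10 and 2.69 SDs between probe sets. Dio2, the deiodinase that turns thyroxine into the active thyroid hormone inside the cell, read 45 in both arrays. Such dim values do not show whether RNA of Dio2, the gene with the full element, was present. No lack of a difference is therefore read from them. Ppargc1a, the coactivator that drives mitochondrial biogenesis, was read by 2 probe sets. Probe set 10529979 read 130 in Oma1_KO and 162 in Oma1_WT, and probe set 10529977 read 40 in Oma1_KO and 44 in Oma1_WT. Both were lower in Oma1_KO, by different amounts, with log2 differences of -0.32 and -0.13, and the mean of the pair was -0.22. That made Ppargc1a the lowest of the 10, at 1.16 SDs below 0, while the target it is best known for, Ucp1, read higher. The SD is that of single probe sets. The multiple of Ppargc1a, for a mean of 2, is therefore not comparable with those of the other members.

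How far Ucp1 stands above background sets what its difference is worth. Olfactory receptor genes, most of which fat is not known to express, served as a yardstick for dim signals, chosen after the values were seen. The 1015 measured had a median of 22.0 in Oma1_KO and 19.0 in Oma1_WT, and a 95th percentile of 52.3 in Oma1_KO and 48.0 in Oma1_WT. Ucp1 lay above that percentile in Oma1_KO, at 55, and below it in Oma1_WT, at 38. Of the olfactory receptor genes, 29 (2.86%) had a still higher log2 difference than Ucp1, as had 1.64% of all genes. Rounding of the deposited values to whole numbers leaves the difference of Ucp1 between 0.49 and 0.55. Olfactory receptor genes brighter than Ucp1 numbered 43 (4.24%) in Oma1_KO and 86 (8.47%) in Oma1_WT. At this brightness the values do not show whether Ucp1 RNA was above background on either array.

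Dio2, Zic1 and probe set 10529977 of Ppargc1a were also in the range of the olfactory receptors. That probe set, at 40 in Oma1_KO and 44 in Oma1_WT, was under the 95th percentile on both arrays and enters the mean difference of Ppargc1a with equal weight, while the other, with -0.32, was above it. Dio2, at 45, was under the 95th percentile on both arrays. Zic1, a zinc finger factor that marks interscapular brown fat rather than beige fat, read 36 in Oma1_KO and 32 in Oma1_WT, also under it on both. Elovl3, an elongase of very long fatty acids that cold induces in brown fat, read 46 in Oma1_KO and 51 in Oma1_WT, below the percentile in Oma1_KO and just above it in Oma1_WT. The log2 differences of Dio2, Zic1 and Elovl3, 0.00, 0.17 and -0.15, were all smaller than the SD of 0.19. These values do not show whether RNA of Dio2, Zic1 and Elovl3 was present in either fat.

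The lipid droplet protein was the exception. Cidea, which promotes lipid transfer between droplets and is abundant in brown fat, read 213 in Oma1_KO and 84 in Oma1_WT. The log2 difference was 1.33, a ratio of 2.54 and 6.62 SDs between probe sets. Only 19 of the 19938 genes had a higher difference, and 10 of the 5613 genes with a mean intensity from 83 to 326. At least 2-fold higher were 0.206% of all genes. Both values of Cidea were above the 95th percentile of the olfactory receptors, and in Oma1_WT it lay just above the median of all probe sets. Cidea has 1 probe set, so no second reading of it exists on the array.

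**Figure D2:**
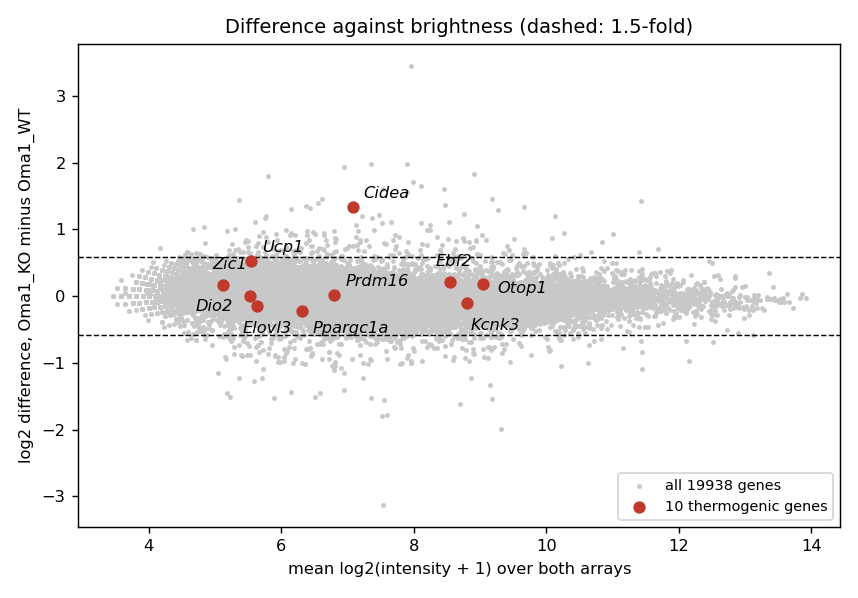
Log2 difference (Oma1_KO minus Oma1_WT) of all 19938 genes against their mean log2(intensity + 1) over both arrays, with the 10 thermogenic genes in red and dashed lines at 1.5-fold. Cidea, at 1.33, stands above the dense cloud, Ucp1, at 0.52, lies near its upper edge, and the other 8 lie within it.

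The regulators of brown and beige identity differed little. Prdm16, the zinc finger coregulator that turns progenitors toward the brown fate, read 111 in Oma1_KO and 110 in Oma1_WT, a log2 difference of 0.01. Ebf2, a factor that marks brown and beige precursors and opens chromatin at thermogenic genes, read 402 in Oma1_KO and 347 in Oma1_WT, a difference of 0.21. That is 1.55 SDs, and 7.1% of the 5786 genes above an intensity of 326 had a still higher difference. Together with Zic1, whose RNA was not shown to be present, these genes give no identity factor past 1.5-fold in either direction.

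The 2 membrane channels read in opposite directions. Otop1, a proton channel best known from the inner ear and sour taste and expressed in brown fat, read 559 in Oma1_KO and 492 in Oma1_WT, a log2 difference of 0.18 or 1.34 SDs. Kcnk3, a background potassium channel that damps the adrenergic response of brown adipocytes in mice, read 428 in Oma1_KO and 461 in Oma1_WT, a difference of -0.11 or 0.78 SDs below 0. Otop1, Kcnk3 and Ebf2 were the 3 members in the brightest class of genes, where the probe sets of a gene differ least, and all 3 were well inside 1.5-fold. In whole-tissue RNA, fewer cells of a type and less RNA per cell cannot be told apart, for these genes as for the others.

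Related genes of each family were read beside the members. Of 37 measured paralogs, 22 were higher in Oma1_KO, 14 lower and 1 equal, and 2 were at least 1.5-fold higher, against 1.1% of all genes. Only 17 of the 37 had a mean of at least 83, where 4172 of all 11399 genes read higher. Under 83, 5184 of all 8539 genes read higher. The paralogs past 1.5-fold belonged to Cidea and Elovl3. Cideb, the CIDE protein of liver lipoprotein secretion, read 180 in Oma1_KO and 119 in Oma1_WT, a log2 difference of 0.59. Cidec, the CIDE protein of large white fat droplets, read 9316 in Oma1_KO and 10771 in Oma1_WT, a difference of -0.21. Within the family, then, the gene of white droplets was slightly lower where the other two were higher. Elovl2, an elongase of polyunsaturated fatty acids strong in liver, read 59 in Oma1_KO and 33 in Oma1_WT, a difference of 0.82 between values under 83. The elongases Elovl5 and Elovl6 read 2319 and 1606 in Oma1_KO, against 2209 and 1389 in Oma1_WT, differences of 0.07 and 0.21.

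The relatives of Ucp1 did not share its direction. Ucp3, the muscle form, read 320 in Oma1_KO and 344 in Oma1_WT, a log2 difference of -0.10, and Slc25a30, a related mitochondrial carrier, 455 in Oma1_KO and 454 in Oma1_WT. Ppargc1b and Pprc1, coactivators related to Ppargc1a, differed by -0.03 and 0.12. Mecom, the closest relative of Prdm16, read 58 in Oma1_KO and 83.3 in Oma1_WT, a difference of -0.51. Ebf1, a regulator of adipocyte genes in general, read 1728 in Oma1_KO and 2044 in Oma1_WT, a difference of -0.24, and Ebf3 differed by -0.15, both opposite to Ebf2. Of 13 other potassium channels of the Kcnk family, 10 were higher and 2 lower, with a median of 0.15, and 8 of them had a mean under 83. Under that mean, 5184 of all 8539 genes read higher.

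**Figure D3:**
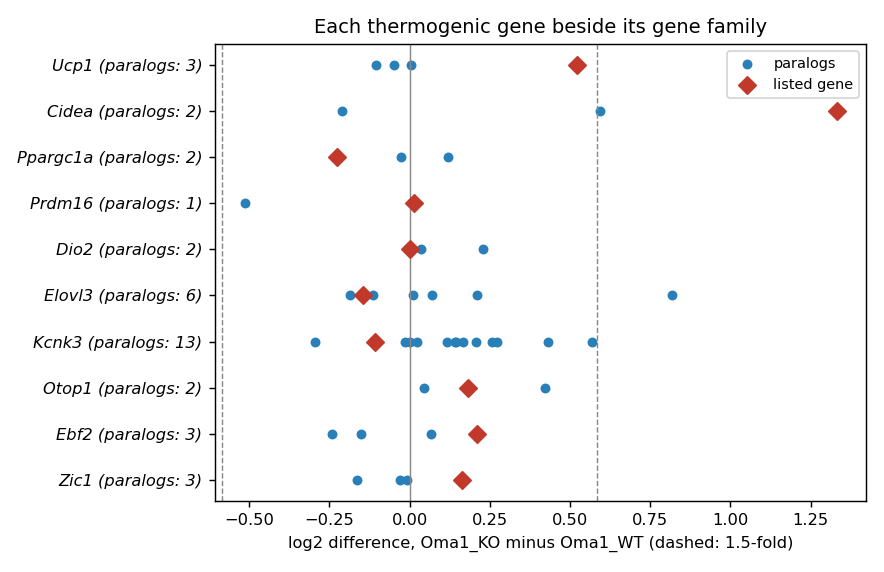
Log2 difference (Oma1_KO minus Oma1_WT) of each thermogenic gene (red diamonds) and of its measured paralogs (blue points), with dashed lines at 1.5-fold. Cidea at 1.33 and Cideb at 0.59 lie to the right of Cidec at -0.21, and the paralogs of Ucp1 lie between -0.10 and 0.00.

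The genes around the members were read from 10 lists covering the adrenergic signal, transcription, effectors and secreted factors. Over all 133 measured genes of these lists, each counted once, 63 were higher, 67 lower and 3 equal, and the median was 0.00. Past 1.5-fold were 4 upward and 2 downward. Every list median lay within 0.2 of 0. The direction counts of single lists are read beside those of all genes of like brightness. Of the 133 genes 110 had a mean of at least 83, where 7100 of all 11399 genes read lower. Under 83, 5184 of all 8539 genes read higher.

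Upstream, 11 of 16 listed genes of beta-adrenergic signalling were measured, and no beta-adrenergic receptor was among the 11. Of these genes 7 were higher and 4 lower and 0 past 1.5-fold, with a median of 0.03. Adcy3, an adenylyl cyclase of adipocytes, read 485 in Oma1_KO and 358 in Oma1_WT, a log2 difference of 0.44, and Adcy6, another cyclase, 590 in Oma1_KO and 777 in Oma1_WT, a difference of -0.40. The kinase subunit Prkar2b, the main regulatory subunit of adipocyte protein kinase A, read 3372 in Oma1_KO and 3350 in Oma1_WT. Of 10 genes that restrain the signal, 8 were lower and 2 higher, 0 past 1.5-fold, with a median of -0.09. All 10 had a mean of at least 83, where 7100 of all 11399 genes read lower. Pde4b, a phosphodiesterase that breaks down cAMP, read 106 in Oma1_KO and 159 in Oma1_WT, a difference of -0.58, just under 1.5-fold. Pde3b, the phosphodiesterase that insulin activates in fat, read 1453 in Oma1_KO and 1799 in Oma1_WT, a difference of -0.31. Sik1 read 497 in Oma1_KO and 582 in Oma1_WT, a difference of -0.23. Arrb2 went the other way, at 702 in Oma1_KO and 571 in Oma1_WT, a difference of 0.30. The 5 genes of natriuretic peptide signalling, which also reaches Ucp1, were all lower (4 of them after quantile normalisation), with a median of -0.16 and the lowest at -0.28 for the kinase Prkg1.

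Of 27 transcriptional activators 10 were higher, 15 lower and 2 equal, or 13 higher and 14 lower after quantile normalisation or loess. None passed 1.5-fold (0 of 27), and the median was -0.03. Pparg, the master regulator of fat cells, read 3721 in Oma1_KO and 4050 in Oma1_WT, a log2 difference of -0.12. Klf11, a factor of the beige state in human adipocytes, read 415 in Oma1_KO and 331 in Oma1_WT, a difference of 0.33, and the nuclear receptor partner Rxra 818 in Oma1_KO and 999 in Oma1_WT, a difference of -0.29. Ehmt1, a methyltransferase that works with Prdm16, read 256 in Oma1_KO and 306 in Oma1_WT, a difference of -0.26, and the oestrogen-related receptor Esrrg 95 in Oma1_KO and 112 in Oma1_WT, a difference of -0.24. Of 12 repressors 8 were lower and 4 higher, 0 past 1.5-fold, with a median of -0.15. Zfp423, which holds white adipocytes in the white state, read 455 in Oma1_KO and 598 in Oma1_WT, a difference of -0.39. Twist1, which binds and restrains Ppargc1a, read 147 in Oma1_KO and 198 in Oma1_WT, a difference of -0.43. Rbpj, the transcription factor of Notch signalling, went the other way, at 314 in Oma1_KO and 251 in Oma1_WT, a difference of 0.32.

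Downstream, 14 other enzymes and carriers of brown fat were measured. Of these 8 were higher and 6 lower, 2 at least 1.5-fold higher and 0 lower, with a median of 0.07. Slc27a2, a fatty acid transporter and acyl-CoA synthetase also strong in liver, read 195 in Oma1_KO and 108 in Oma1_WT, a log2 difference of 0.85. S100b, a calcium-binding protein that brown adipocytes secrete toward nerves, read 56 in Oma1_KO and 36 in Oma1_WT, a difference of 0.62 at values under 83. Of the cytochrome oxidase subunits of brown fat, Cox8b read 1079 in Oma1_KO and 926 in Oma1_WT, a difference of 0.22, and Cox7a1 260 in Oma1_KO and 267 in Oma1_WT, close to equal at -0.04. Acot2, a mitochondrial thioesterase, read 1020 in Oma1_KO and 791 in Oma1_WT, a difference of 0.37.

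Of 17 other surface and lineage markers of beige and brown cells, 10 were higher, 6 lower and 1 equal, and the median was 0.11. Hspb7, a small heat shock protein of heart, muscle and brown fat, read 342 in Oma1_KO and 222 in Oma1_WT, a log2 difference of 0.62, and was the only 1 at least 1.5-fold higher. Mpzl2, an adhesion protein, was the only 1 at least 1.5-fold lower, at 55 in Oma1_KO and 95 in Oma1_WT, a difference of -0.78. Slc36a2, an amino acid transporter of brown and beige adipocytes, read 2847 in Oma1_KO and 3830 in Oma1_WT, a difference of -0.43. Cd40, an immune receptor also used as a marker of beige cells, read 201 in Oma1_KO and 161 in Oma1_WT, a difference of 0.32, and Klhl13, a ubiquitin ligase adaptor, 352 in Oma1_KO and 449 in Oma1_WT, a difference of -0.35. The beige markers Tmem26, Tbx1, Tnfrsf9 and Cited1, named after their values were seen, read 81, 95, 87 and 89 in Oma1_KO, against 83, 85, 79 and 81 in Oma1_WT.

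Heat can also be made without Ucp1, by cycling creatine or calcium. Of 15 genes of these cycles 8 were higher and 7 lower, 1 past 1.5-fold each way, with a median of 0.02. The split was 10 higher and 5 lower after quantile normalisation, 11 and 4 after loess, and the median was -0.01 over the genes with a mean of at least 83. The creatine genes diverged: Gatm, which makes the precursor, read 1371 in Oma1_KO and 907 in Oma1_WT, a log2 difference of 0.60, while Gamt, which completes creatine, read 1692 in Oma1_KO and 2181 in Oma1_WT, a difference of -0.37. Alpl, the phosphatase of the creatine cycle, read 111 in Oma1_KO and 176 in Oma1_WT, a difference of -0.66. Ckb, the creatine kinase of the cycle, read 2410 in Oma1_KO and 2269 in Oma1_WT, and the calcium pump Atp2a2 2431 in Oma1_KO and 2448 in Oma1_WT.

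Of 11 genes that handle or answer thyroid hormone 7 were higher and 4 lower, 0 past 1.5-fold, with a median of 0.03. Slc16a10, a transporter of thyroid hormone and aromatic amino acids, read 577 in Oma1_KO and 434 in Oma1_WT, a log2 difference of 0.41, while the thyroid-responsive lipogenic enzyme Me1 read 4527 in Oma1_KO and 5445 in Oma1_WT, a difference of -0.27. Of 12 secreted factors of thermogenic fat 7 were higher and 5 lower, 0 past 1.5-fold, with a median of 0.10, which was -0.03 over the genes with a mean of at least 83. Nrg4, a growth factor that brown fat sends to the liver, read 965 in Oma1_KO and 768 in Oma1_WT, a difference of 0.33, and Metrnl, which promotes beiging, 383 in Oma1_KO and 312 in Oma1_WT, a difference of 0.29. Angptl4 read 4235 in Oma1_KO and 3533 in Oma1_WT, a difference of 0.26. Ptgds went the other way, at 157 in Oma1_KO and 193 in Oma1_WT, a difference of -0.30.

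**Figure D4:**
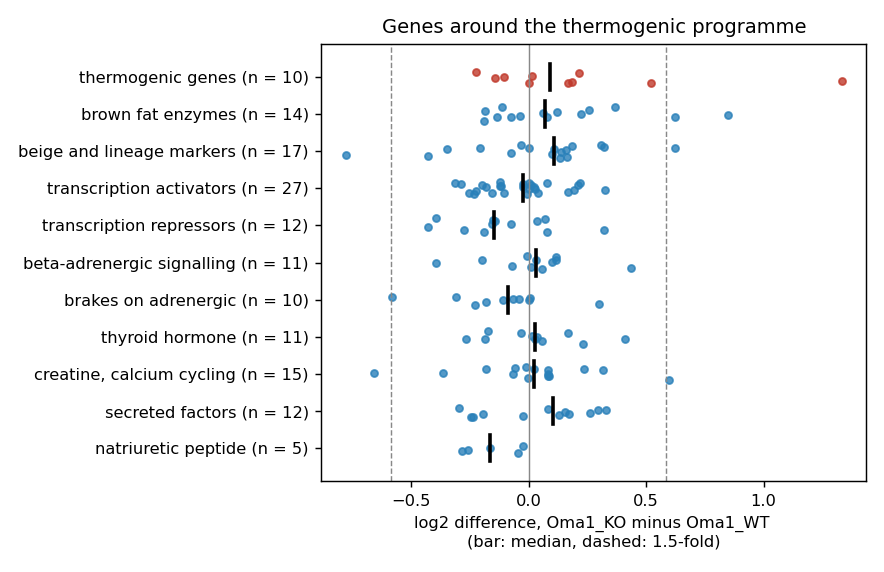
Log2 difference (Oma1_KO minus Oma1_WT) of the 10 thermogenic genes (red) and of the genes of 10 surrounding lists (blue), with a bar at each median and dashed lines at 1.5-fold. All medians lie within 0.2 of 0, and few points pass the dashed lines in either direction.

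Markers of other cell types differed between the 2 samples, some by more than the thermogenic genes. Of 12 liver markers 10 were higher in Oma1_KO and 2 lower, with a median of 0.87, 7 at least 1.5-fold higher and 1 lower. Alb, the albumin gene, read 4523 in Oma1_KO and 1692 in Oma1_WT, a log2 difference of 1.42, beside the 1.33 of Cidea. Cyp2e1, a cytochrome P450 that fat also expresses, went the other way, at 3237 in Oma1_KO and 6384 in Oma1_WT. So did Tat, at 146 in Oma1_KO and 181 in Oma1_WT, a difference of -0.31. The summed intensity of the list was 12921 in Oma1_KO and 10655 in Oma1_WT. Cidea is known to be induced in the fatty liver of mice, and Cideb, Elovl2 and Slc27a2 are strong liver genes. All 4 come from the genes given above as at least 1.5-fold higher in Oma1_KO, which also hold S100b, Hspb7 and Gatm. The shared direction of the 4 follows from that choice and is no separate observation. The part of liver RNA in their values was not tested. Elovl3, which mouse liver also expresses, differed by -0.15, at values of 46 in Oma1_KO and 51 in Oma1_WT. These lie near the range of the olfactory receptors, so no direction is read from them.

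All markers counted in this paragraph had a mean of at least 83, where 7100 of all 11399 genes read lower and 4172 higher. Of 7 white adipocyte markers all 7 were lower in Oma1_KO, with a median of -0.17 and a summed intensity of 41464 in Oma1_KO and 47185 in Oma1_WT. Agt, angiotensinogen, was the only 1 past 1.5-fold, at 816 in Oma1_KO and 1247 in Oma1_WT. All 8 macrophage markers were higher, with a median of 0.30 and sums of 25398 in Oma1_KO and 21769 in Oma1_WT. Among them Cd68 was close to equal, at 5626 in Oma1_KO and 5616 in Oma1_WT. All 8 endothelial markers were lower, with a median of -0.38 and sums of 7621 in Oma1_KO and 9913 in Oma1_WT. Of 8 mesothelial markers 7 were lower, with a median of -0.55 and sums of 1717 in Oma1_KO and 2519 in Oma1_WT. Of 7 adipocyte progenitor markers 3 were higher and 4 lower, with a median of -0.06 and sums of 6363 in Oma1_KO and 6552 in Oma1_WT. The part of these cell types in the values of the thermogenic genes was not tested.

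Muscle and nerve markers were read as well. Most of the skeletal muscle and nerve markers had a mean under 83, where 5184 of all 8539 genes read higher. Of 12 skeletal muscle markers 8 were higher and 4 lower, with a median of 0.05 and sums of 1136 in Oma1_KO and 1034 in Oma1_WT, so the muscle sum differed little. The fast myosin genes Myh1, Myh2 and Myh4 read 28, 37 and 29 in Oma1_KO, against 27, 34 and 32 in Oma1_WT, values in the range of the olfactory receptors. Pvalb alone was past 1.5-fold, at 110 in Oma1_KO and 44 in Oma1_WT. Of 8 smooth muscle and pericyte markers 5 were higher and 3 lower, or 7 and 1 after quantile normalisation or loess, with a median of 0.08 and sums of 7616 in Oma1_KO and 7290 in Oma1_WT. Cnn1, a contractile protein, was the only marker of that list past 1.5-fold, at 201 in Oma1_KO and 96 in Oma1_WT, a log2 difference of 1.06. The contractile genes Myh11 and Tagln read 389 and 351 in Oma1_KO, against 292 and 263 in Oma1_WT, while Notch3, a receptor of pericytes, read 337 in Oma1_KO and 421 in Oma1_WT. Of 8 sympathetic nerve markers 5 were higher, 2 lower and 1 equal, around a median of 0.20, with sums of 474 in Oma1_KO and 469 in Oma1_WT. Uchl1, a neuronal ubiquitin hydrolase, had the largest difference, at 86 in Oma1_KO and 122 in Oma1_WT, a log2 difference of -0.50. Th, the enzyme that begins noradrenaline synthesis, read 65 in Oma1_KO and 54 in Oma1_WT, a difference of 0.26, and only 2 of the 8 nerve genes passed an intensity of 83.

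**Figure D5:**
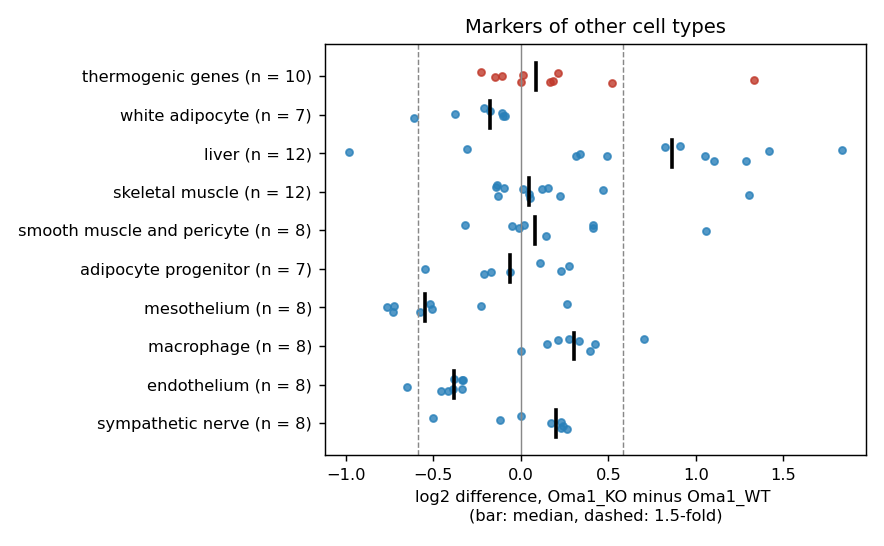
Log2 difference (Oma1_KO minus Oma1_WT) of the 10 thermogenic genes (red) and of markers of 9 cell types (blue), with a bar at each median and dashed lines at 1.5-fold. Liver markers have a median of 0.87, endothelial and mesothelial markers medians of -0.38 and -0.55, and the thermogenic genes a median of 0.09.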

How the data were processed

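RNA of Oma1-deficient and control fat was hybridised to Affymetrix Mouse Gene 1.0 ST arrays, 1 per group, after Trizol extraction and biotin labelling, per the labels' protocols. The deposited values are linear intensities in whole numbers, 1 for each probe set on each array. How the authors corrected background, summarised probes and scaled arrays is not given in the sources used here. No detection calls were used.

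Of 35512 probe sets, 21789 carried a single symbol in GEO's platform annotation, 1621 several and 12102 none. Those with a single symbol were kept, and a gene's probe sets averaged on log2(intensity + 1), which understates the change of dim genes. No filter or further scaling was applied. Members and lists were chosen with earlier results of these data known. The rule named all members with every probe set, and paralogs past 1.5-fold or brighter than the member. It also named up to 4 genes per list by absolute difference, among those with a mean of at least 83. Oma1, Adrb3, Pparg, Adipoq and Alb were named in any case. Not every gene that the rule picked is printed: Acot11, Adcy9, Map2k6, Nr1h3, Elovl1 and Kcnk6 are among those left out. Adrb3 was not analysed here. Genes with no rule behind them (dim paralogs, Prkar2b, Cox7a1, beige markers, Atp2a2, S100b, Mpzl2, Cyp2e1, Tat, Cd68, muscle and nerve genes) were named after their values were seen. Counting was tested on simulated data. Alternatives were quantile normalisation, loess (span 0.4), median centring, a pseudocount of 16, the brightest probe set and a filter at the median. Python 3.11.15, numpy 2.4.6, pandas 2.3.3, statsmodels 0.14.6 and matplotlib 3.10.9 were used.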

Additional observations from a re-analysis of the deposited data

How the results depend on the processing

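Under quantile normalisation, loess, median centring, a pseudocount of 16, the brightest probe set of each gene and, for the counts and the median, a filter at the median, the count of thermogenic genes at least 1.5-fold higher was 1 and the count at least 1.5-fold lower was 0, as reported. No member changed sign in any of these. The log2 difference of Cidea ranged from 1.20 to 1.37 and that of Ucp1 from 0.39 to 0.52. Dio2, equal on both arrays, came to -0.06 at its lowest, which made 4 members lower after quantile normalisation and after loess. Median centring subtracted 0 and changed nothing. With the 5 members above the filter the median was 0.18. Of 171 list medians under the alternatives 2 moved by at least the SD between probe sets, both with the filter: the paralogs of Otop1, at 0.05, and sympathetic nerve markers, at -0.16. The medians of nerve markers, of secreted factors (-0.03) and of creatine and calcium cycling (-0.01) were of opposite sign with the filter, and no other list median was under any alternative. Of the genes named around the members, S100b (0.58 after quantile normalisation, 0.56 after loess, 0.47 with a pseudocount of 16), Agt (-0.57 after quantile normalisation, -0.56 after loess), Cideb (0.54 with a pseudocount of 16) and Pitx3 (0.54 with it) fell short of 1.5-fold, while Cox7a1, Atp2a2 and Myh1, all close to equal, changed sign after loess. No paired analysis was possible because each group has 1 array, and no replicate could be left out. Brightness limits Ucp1, Dio2, Elovl3, Zic1 and probe set 10529977 of Ppargc1a, which lay near the olfactory receptor genes.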

Other observations

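The genes on either side of each thermogenic gene were read as a further description, by a rule added after seeing the data: the 2 nearest protein-coding genes on each side in RefSeq order. Of 40 such places 38 held a measured gene, of which 18 were higher in Oma1_KO, 19 lower and 1 equal, with a median log2 difference of -0.01. The measured neighbours of Cidea were all inside 1.5-fold, and the gene directly before it in that order was not measured. Mppe1, a phosphoesterase, read 172 on both arrays. Tubb6, a beta-tubulin, read 712 in Oma1_KO and 623 in Oma1_WT, a difference of 0.19. Afg3l2, a subunit of another inner membrane protease, read 572 in Oma1_KO and 645 in Oma1_WT, a difference of -0.17. The differences of Tubb6 and Afg3l2 were larger than the SD of 0.14 at their brightness.

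Of the 38 neighbours, 1 passed 1.5-fold upward and 1 downward. Tshr, the receptor for thyrotropin and a neighbour of Dio2, is a receptor of fat cells that raises cAMP. It read 1334 in Oma1_KO and 2121 in Oma1_WT, a log2 difference of -0.67. Pitx3, a homeobox gene beside Elovl3, read 108 in Oma1_KO and 69 in Oma1_WT, a difference of 0.64. Neither has a replicate check.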
